A study of Mus musculus with 24 samples.

Results

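The solute carriers are the largest family of membrane transporters, and 171 of their genes were followed here through the response of mouse dermal fibroblasts to the cytokine TWEAK. A gene belonged to the set if its symbol began with Slc, a number and a letter, and if its unique molecular identifiers (UMIs, which count RNA molecules once each) summed to 200 or more over all 24 libraries. Of 211 symbols of that form in the count table, 171 reached the minimum and 40 did not. The 3 members just inside were Slc37a2, Slc25a14 and Slc38a9 with 200, 201 and 210 UMIs, and the 3 genes just outside were Slc43a1, Slc24a5 and Slc25a35 with 196, 195 and 194 UMIs. All 171 members passed the filter on low counts and were tested among 11337 genes of 13479 in the table. The name rule also caught 4 genes that are not transporters, among them Slc9a3r2, and these are described apart.

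The cells were primary dermal fibroblasts at passage 5. They came from NIK knockout mice (KO), from mice with a mutation labelled NIK X mut (MUT) and from wild-type littermates (WT). What the X mutation changes, how the knockout was made, and which mice gave which replicates are not given in the sources used here, so p-values measure only the spread between samples. Each genotype was left untreated (0 h) or exposed to TWEAK at 100 ng/ml for 6 or 24 h, with 2 KO, 2 MUT and 4 WT libraries at each time. In some labels the earlier exposure is called 3 h, but titles and treatment protocol say 6 h, which is used here. The untreated libraries carry no later time, so that TWEAK and time in culture cannot be told apart. The study's title places the work downstream of NIK, at the kinases IKK1 and IKK2.

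The libraries held 889863 to 4342981 UMIs, of which the members took 0.98% to 1.18%. Map3k14, the gene of NIK, had 0 or 1 UMI in each KO library, against 63 to 164 in MUT and 34 to 186 in WT libraries. The 9 fibroblast markers summed to 16606 to 19125 CPM (counts scaled to a common library depth) in KO, 17768 to 21932 CPM in MUT and 13334 to 22798 CPM in WT libraries. Keratinocyte, leukocyte, adipocyte and melanocyte or Schwann cell markers summed to at most 13.4 CPM in any library. Endothelial markers summed to at most 42.4 CPM and pericyte or muscle markers to at most 361 CPM, and the endothelial gene Cdh5 rose in WT at 24 h (log2 change 1.56 ± 0.41, adjusted p = 0.0225). The fibroblast marker Thy1 fell there (-0.67 ± 0.16). Pecam1, Ptprc, Adgre1, Krt5, Krt1, Adipoq and Plin1 had no row in the table used here. The part of these markers in the results at 24 h was not tested. The libraries fell into 2 sets that genotype does not explain. On the first principal component, WT replicates 1 and 2 lay with KO, and WT replicates 3 and 4 with MUT. Top2a, a gene of dividing cells, followed the same division before treatment, with 32.3 and 49.02 CPM in KO, 139 and 113 CPM in MUT, 28.2 and 30.6 CPM in WT replicates 1 and 2 and 140.1 and 133 CPM in WT replicates 3 and 4. For the changes of named members called in WT against untreated cells, values within each set are given where they lay more than 1.5-fold apart or did not pass in both sets. The difference between the sets was not tested.

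Solute carriers are numbered by family, and members of a family usually share a substrate. Most move a solute across the plasma membrane, driven by a sodium or proton gradient or by exchange for another solute, while family 25 serves the inner mitochondrial membrane and others serve lysosomes, the Golgi apparatus or vesicles. TWEAK is a cytokine of the tumour necrosis factor family that binds the receptor Fn14, and in fibroblasts it activates NF-kB. The noncanonical arm of that pathway depends on the kinase NIK, which leads to processing of the precursor p100 and entry of RelB into the nucleus.

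Of the 171 members, 133 had a promoter in the RefSeq table of GRCm38.p6, which spans 250 bases before and 50 after a transcript's start. Slc11a2, Slc15a3, Slc7a2 and Slc7a5 had none. Promoters were searched on both strands for the NF-kB consensus and for the amino acid response element TGATGNAA, to which ATF4 binds in amino acid shortage. The first was in 10.9% of 183 member promoters, against 8.46% of all 32851 promoters, and the second in 3.83% and 3.97%. The search was made with the calls below known. Capitals mark the matches in the 3 promoters shown, each written 5′ to 3′ on the gene's strand. Slc20a1 is shown as the member whose response to TWEAK differed between KO and WT in the fit by genotype and time. Its upstream entry (chr2:129198523-129198822, plus strand) held neither motif. Slc7a7 and Slc7a11 are shown as amino acid exchangers higher at 6 h in WT with a match. Of the 5 members higher at 6 h in WT that had an entry, 1 held the NF-kB consensus and 2 the amino acid response element. Over all genes with an entry the shares were 9.55% and 4.51%. The Slc7a7 entry (chr14:54417653-54417952, minus strand) held letters that match the NF-kB consensus on either strand, 124 bases before the start, and an amino acid response element. The Slc7a11 entry (chr3:50443564-50443863, minus strand) held 2 amino acid response elements, 1 on each strand, the first 66 bases before the start. A match is a description of these letters and not a binding site.
Slc20a1: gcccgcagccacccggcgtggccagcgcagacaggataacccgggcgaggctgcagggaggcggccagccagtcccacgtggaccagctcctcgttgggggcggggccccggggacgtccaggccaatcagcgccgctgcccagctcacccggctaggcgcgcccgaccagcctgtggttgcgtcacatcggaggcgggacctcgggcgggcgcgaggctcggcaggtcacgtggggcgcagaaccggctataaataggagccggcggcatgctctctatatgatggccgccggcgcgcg
Slc7a7: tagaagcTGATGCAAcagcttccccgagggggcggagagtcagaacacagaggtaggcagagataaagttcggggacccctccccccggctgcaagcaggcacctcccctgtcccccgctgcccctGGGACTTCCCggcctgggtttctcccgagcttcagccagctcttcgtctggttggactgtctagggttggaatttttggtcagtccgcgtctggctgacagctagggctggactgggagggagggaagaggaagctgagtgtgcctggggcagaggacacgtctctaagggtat
Slc7a11: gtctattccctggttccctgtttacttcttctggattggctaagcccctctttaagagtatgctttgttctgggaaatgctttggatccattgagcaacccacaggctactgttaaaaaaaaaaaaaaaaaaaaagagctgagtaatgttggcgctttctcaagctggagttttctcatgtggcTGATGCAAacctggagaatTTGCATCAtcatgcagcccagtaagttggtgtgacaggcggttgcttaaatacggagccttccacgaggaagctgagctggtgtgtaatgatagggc

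The members were sorted by substrate into 17 classes. The 31 mitochondrial carriers held 38.1% of all member UMIs, the 27 amino acid transporters 16.3%, the 16 zinc transporters 9.87% and the 18 carriers of nucleotide sugars and related solutes 6.93%. The 5 members with the highest mean level over the 24 libraries were Slc25a3, the mitochondrial phosphate carrier (1272 CPM), Slc25a4, which exchanges ADP for ATP (1187 CPM), the creatine transporter Slc6a8 (434 CPM), the zinc transporter Slc39a7 of the endoplasmic reticulum (345 CPM) and Slc3a2 (310.5 CPM), the heavy chain that several amino acid exchangers need to reach the cell surface. None of these 5 passed the test in any contrast. UMIs count 3′ ends, so these levels do not depend on transcript length. A lower level in these bulk libraries can mean fewer cells that express a gene or less RNA per cell, which cannot be told apart.

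In WT cells 12 members passed the test at 6 h, 9 higher and 3 lower than untreated. Passing the test means an adjusted p (Benjamini-Hochberg, over all 11337 genes) below 0.05 in edgeR's quasi-likelihood test. Over all genes 4.35% were higher and 2.06% lower, while 9 of 171 members were higher and 3 of 171 lower, shares near the background. At 24 h 10 members were higher, against a background of 3.68%, and 9 were lower, against 3.19%. The median log2 change of the members was 0.04 at 6 h and -0.02 at 24 h, beside -0.01 and -0.0017 over all genes. The members past the test came from 8 of 17 classes at 6 h and 13 of 17 at 24 h. With the replicate number as a block, 21 members passed at 6 h and 30 at 24 h, among them all 12 and 19 of the fit without it. Same-numbered WT libraries deviated together, but WT replicates 3 and 4 also deviated together across numbers. Over all 13 contrasts, 46 calls of a member were made. Of these, 11 held under every alternative tried, namely those of Slc11a2, Slc15a3, Slc20a1, Slc25a25 and Slc7a2 in WT at both times and that of Slc1a4 in WT at 24 h. The other 35 were lost under at least 1 alternative, and none changed sign.

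**Figure D1:**
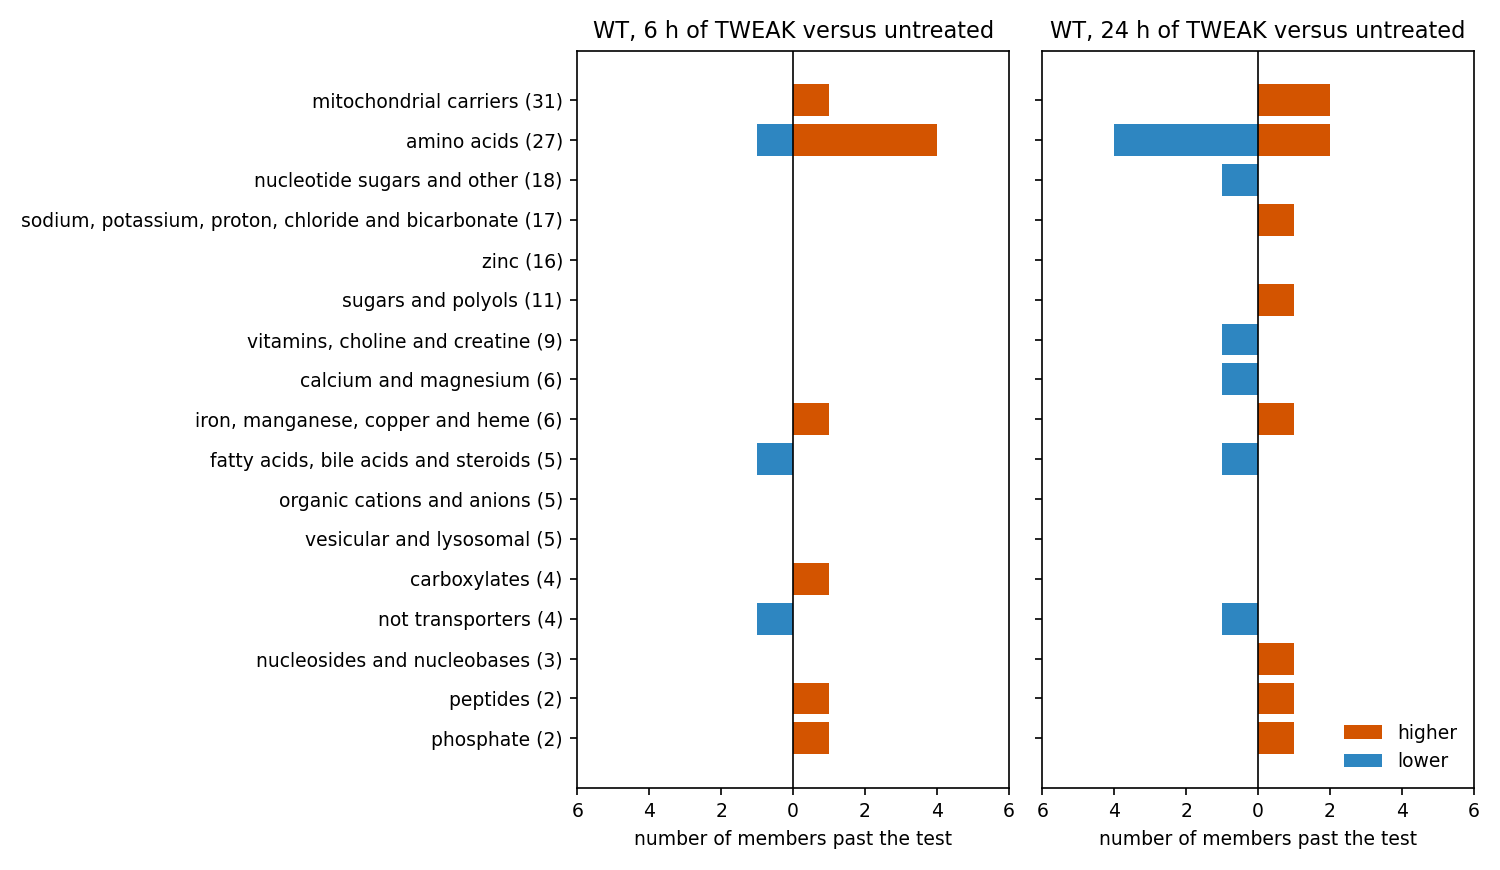
Number of members past the test in WT cells after 6 h (left) and 24 h (right) of TWEAK, by substrate class, with the number of members of the class in brackets. Bars to the right count members higher than untreated and bars to the left members lower; amino acid transporters had 4 higher and 1 lower at 6 h and 2 higher and 4 lower at 24 h, and zinc transporters had none.

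Of the 2 phosphate transporters in the set, Slc20a1 passed in WT at both times and Slc20a2 at neither. Slc20a1 (chromosome 2, 129198764 to 129211616, plus strand, protein-coding) encodes PiT-1, a sodium-phosphate cotransporter of the plasma membrane that also serves as a receptor for some retroviruses. In WT it stood at 182, 98.1, 92.6 and 107 CPM untreated, 674, 557, 589 and 521 CPM at 6 h and 694, 506, 324 and 318 CPM at 24 h. Every treated WT library lay above every untreated one. Slc20a1 rose at 6 h by a log2 change of 2.29 ± 0.25 with adjusted p = 1.93e-06 and at 24 h by 1.94 ± 0.24 with adjusted p = 1.26e-05 (SE, n = 4 each). Within the library sets the change at 6 h was 2.14 ± 0.25 in WT replicates 1 and 2 and 2.48 ± 0.26 in WT replicates 3 and 4, and at 24 h it was 2.10 ± 0.25 and 1.69 ± 0.25.

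Of the 6 carriers of iron, manganese, copper and heme, 1 passed. Slc11a2 (chromosome 15, 100387898 to 100425072, minus strand) encodes DMT1, which carries ferrous iron across the plasma membrane and out of endosomes. In WT it measured 60.5, 62.1, 50.1 and 63.03 CPM untreated, 116, 121, 102 and 96.4 CPM at 6 h and 115, 118, 102 and 102 CPM at 24 h, with no overlap between treated and untreated libraries. It rose by 0.89 ± 0.12 with adjusted p = 4.09e-05 at 6 h and 0.90 ± 0.12 with adjusted p = 2.2e-05 at 24 h. Within the sets it passed at both times (adjusted p = 0.000145 to 0.000931). Among 18 tested genes of iron and zinc handling outside the name rule, 1 passed in WT at 6 h, the metallothionein gene Mt2 (log2 change 1.34 ± 0.18, adjusted p = 3.93e-05), and 0 passed at 24 h. Transferrin receptor and ferritin genes were in that list, chosen with earlier results of these data known, and did not pass. Over all genes 6.41% passed in WT at 6 h and 6.87% at 24 h.

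Slc15a3 (chromosome 19, 10839727 to 10859362, plus strand) encodes a proton-driven peptide transporter of endosomes and lysosomes that is known to carry bacterial muramyl dipeptide towards the NOD receptors. It was near absent from untreated WT cells, with 0, 0, 1 and 1 UMI per library. It had 10, 18, 18 and 11 UMIs at 6 h and 27, 24, 46 and 17 UMIs at 24 h. Scaled to depth these were 0, 0, 0.42 and 0.64 CPM untreated, 11.9, 8.597, 12.2 and 6.31 CPM at 6 h and 8.86, 7.37, 13.3 and 9.304 CPM at 24 h. Slc15a3 rose at 6 h, with 57 UMIs in all against 2 in untreated WT, which after division by the summed depth of each group is a ratio of 43.6 (95% exact Poisson interval 11.5 to 369, adjusted p of the fit = 1.69e-05), and at 24 h, with 114 UMIs and a ratio of 48.7 (13.2 to 407, adjusted p = 7.48e-06). The intervals cover counting error only. The change passed within both sets (adjusted p = 0.000163 and 0.00177 at 6 h, 9.97e-05 and 0.000883 at 24 h), but with 0 UMIs in untreated WT replicates 1 and 2 its size within them cannot be compared. Its relative Slc15a4, the other peptide transporter of the set, held 90.5% of the UMIs of the class and did not pass. Of 10 tested genes of endolysosomal peptide and NOD signalling, 5 rose in WT at 6 h and 0 fell, against 4.35% and 2.06% of all genes. That list was chosen with earlier results of these data known, so the count is a description. The 5 that rose were Nod1 (log2 change 0.87 ± 0.25, named after its value was seen), its adaptor kinase Ripk2 (1.64 ± 0.24), Tlr2 (1.88 ± 0.37), Irf5 (1.99 ± 0.32) and Myd88 (0.55 ± 0.14). Ripk2 (0.79 ± 0.23) and Irf5 (1.43 ± 0.31) were still higher at 24 h, against 3.68% of all genes.

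**Figure D2:**
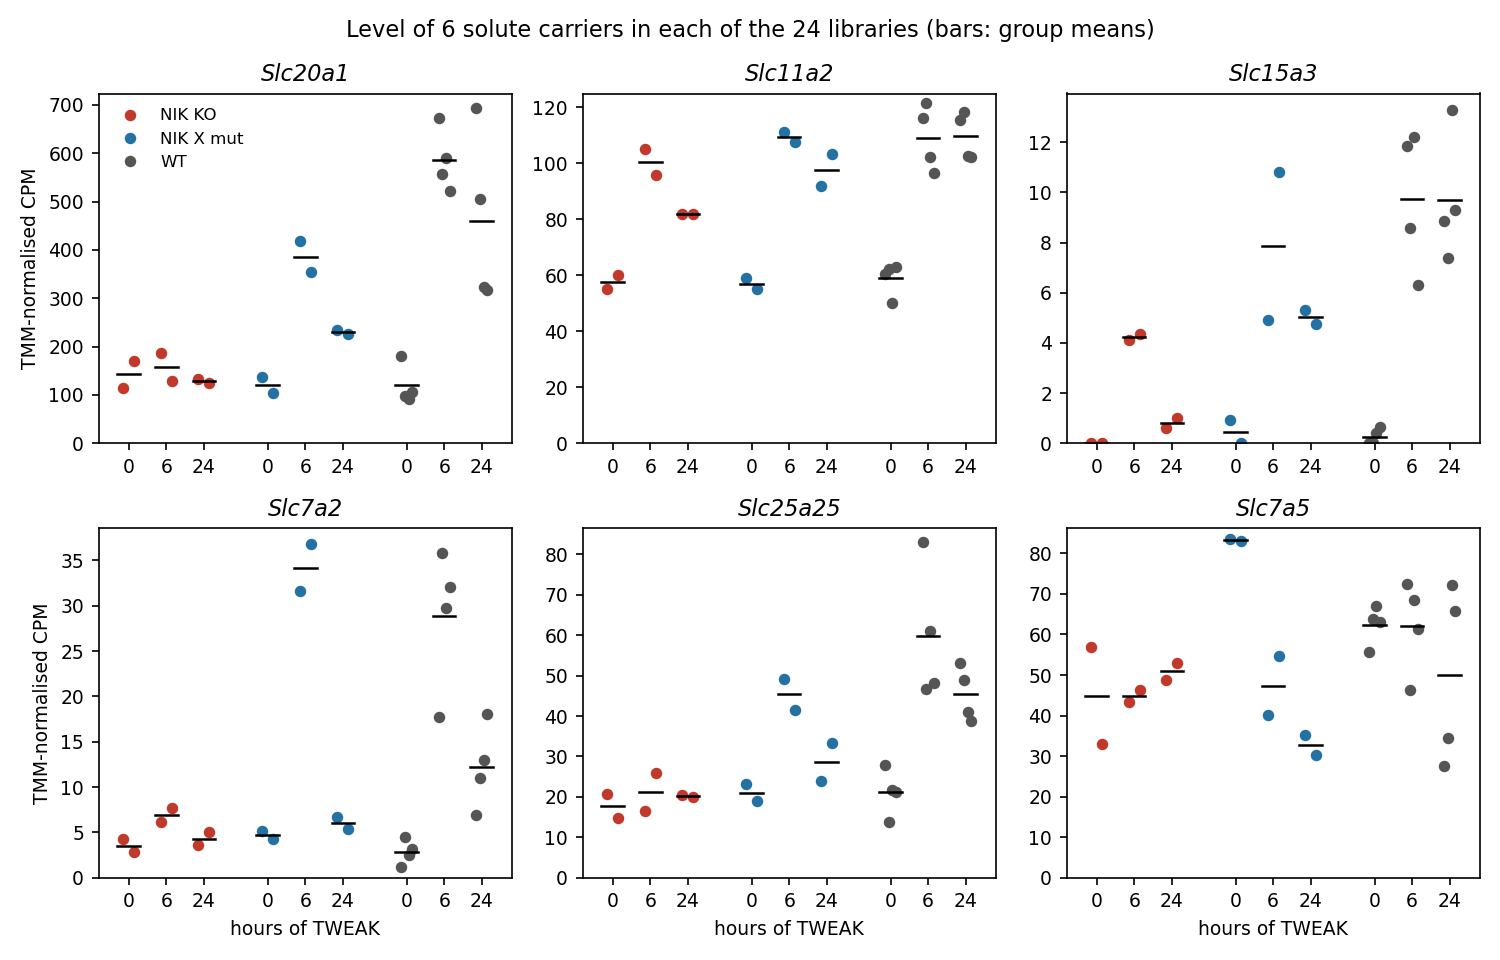
TMM-normalised level, in CPM on linear axes that start at 0, of 6 solute carriers in each library at 0, 6 and 24 h of TWEAK; points are libraries, coloured by genotype, and bars are group means. Slc20a1 stays between 114 and 188 CPM in all KO libraries and reaches 318 to 694 CPM in treated WT libraries, whereas Slc11a2 is higher in treated than in untreated libraries of every genotype.

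The amino acid transporters moved in both directions. Slc7a1, Slc7a2, Slc7a7 and Slc7a11, all of family 7, rose at 6 h. Slc7a2 (chromosome 8, 40862396 to 40922308, plus strand) encodes CAT-2, an arginine and lysine transporter known to be inducible by cytokines. It had 1.14, 4.504, 2.55 and 3.22 CPM untreated, 17.8, 35.8, 29.8 and 32.1 CPM at 6 h and 6.89, 11.1, 12.99 and 18.1 CPM at 24 h in WT. It rose by 3.34 ± 0.33 with adjusted p = 5.84e-07 at 6 h and 2.04 ± 0.34 with adjusted p = 0.000467 at 24 h, and it fell by 1.30 on the log2 scale between 6 and 24 h (SE 0.27, adjusted p = 0.0104). The call between the times was lost without WT replicate 3, or with only the libraries compared in the fit (-1.34 to -1.29, adjusted p 0.0897 to 0.103). The change at 24 h was 1.60 ± 0.44 (adjusted p = 0.0259) in WT replicates 1 and 2 and 2.40 ± 0.47 (adjusted p = 0.00314) in WT replicates 3 and 4. Of the 3 times, its level was highest at 6 h.

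Slc7a1, the related arginine transporter CAT-1 of growing cells, had 71.1, 94.1, 122 and 116 CPM at 6 h in WT, against 74.6, 57.6, 70.1 and 69.5 CPM untreated. WT replicate 1 at 6 h lay within the range of the untreated libraries and the other 3 lay above it. Slc7a1 rose by 0.58 ± 0.15 with adjusted p = 0.018 and was back at 66.6, 64.5, 63.2 and 80.5 CPM at 24 h, a fall since 6 h (log2 change -0.57 ± 0.15 with adjusted p = 0.0315; lost without either KO replicate, either MUT replicate or WT replicate 2, 3 or 4, or with only the libraries compared in the fit (-0.58 to -0.44, adjusted p 0.0602 to 0.274)). The rise at 6 h was lost without WT replicate 2, 3 or 4, or with only the libraries compared in the fit (0.51 to 0.59, adjusted p 0.067 to 0.175). It was 0.36 ± 0.18 (adjusted p = 0.321) in WT replicates 1 and 2 and 0.77 ± 0.17 (adjusted p = 0.00503) in WT replicates 3 and 4.

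Slc7a7, the light chain of an exchanger that releases cationic amino acids, had 3.81, 14.2, 14.01 and 10.9 CPM untreated, 13.04, 44.4, 28.4 and 40.1 CPM at 6 h and 8.199, 30.1, 40.99 and 49.3 CPM at 24 h. WT replicate 1 was the lowest library at each time. Slc7a7 rose by 1.61 ± 0.43 with adjusted p = 0.0268 at 6 h and 1.56 ± 0.42 with adjusted p = 0.0267 at 24 h. The call at 6 h was lost without either KO replicate, either MUT replicate or WT replicate 2, 3 or 4, or with only the libraries compared in the fit (1.498 to 1.83, adjusted p 0.0544 to 0.128), and that at 24 h was lost without either KO replicate, either MUT replicate or WT replicate 2, 3 or 4, or with only the libraries compared in the fit (1.31 to 1.79, adjusted p 0.053 to 0.143). By set, Slc7a7 changed at 6 h by 1.80 ± 0.52 (adjusted p = 0.0602) in WT replicates 1 and 2 and 1.44 ± 0.52 (adjusted p = 0.087) in WT replicates 3 and 4. At 24 h it changed by 1.06 ± 0.51 (adjusted p = 0.247) in WT replicates 1 and 2 and 1.82 ± 0.50 (adjusted p = 0.0364) in WT replicates 3 and 4. Slc7a11, the cystine importer xCT that feeds glutathione synthesis, had 8.3005, 12.9, 9.48 and 12.04 CPM at 6 h, against 5.33, 4.83, 2.55 and 3.86 CPM untreated, without overlap. It rose by 1.37 ± 0.31 with adjusted p = 0.00851 at 6 h (1.29 without WT replicate 4, adjusted p = 0.0725), by 1.14 ± 0.37 (adjusted p = 0.102) in WT replicates 1 and 2 and 1.79 ± 0.43 (adjusted p = 0.00765) in WT replicates 3 and 4. At 24 h it did not pass (0.86 ± 0.30 with adjusted p = 0.0993).

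Slc7a5, which encodes LAT1, the importer of leucine and other large neutral amino acids, passed in no contrast. It had 55.6, 63.7, 67.1 and 63.03 CPM untreated, 72.3, 46.3, 68.4 and 61.4 CPM at 6 h and 27.5, 34.4, 72.2 and 65.7 CPM at 24 h in WT. The libraries of 24 h split by set. The log2 change was -0.94 ± 0.22 in WT replicates 1 and 2 (adjusted p = 0.00894) and 0.09 ± 0.22 in WT replicates 3 and 4 (adjusted p = 0.893). The partner chain Slc3a2 changed by -0.01 ± 0.16 with adjusted p = 0.992 at 6 h and -0.23 ± 0.16 with adjusted p = 0.461 at 24 h and did not pass.

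The amino acid transporters that fell were mostly of family 1 and carry neutral or acidic amino acids. Slc1a4, the alanine, serine and cysteine exchanger ASCT1, had 73.5, 87.5, 95.5 and 87.5 CPM untreated, 68.8, 69.3, 50.8 and 47.6 CPM at 6 h and 54.1, 46.4, 49.9 and 53.1 CPM at 24 h. It fell at 6 h (-0.55 ± 0.15 with adjusted p = 0.0301) and at 24 h (-0.76 ± 0.15 with adjusted p = 0.00208), and every treated library lay below every untreated one. The call at 6 h was lost without either MUT replicate or WT replicate 3 or 4, or with only the libraries compared in the fit (-0.54 to -0.42, adjusted p 0.0707 to 0.274). By set the change at 6 h was -0.22 ± 0.18 (adjusted p = 0.604) in WT replicates 1 and 2 and -0.90 ± 0.19 (adjusted p = 0.00251) in WT replicates 3 and 4. At 24 h the glutamate transporters Slc1a3 (-1.79 ± 0.49 with adjusted p = 0.028) and Slc1a6 (-1.19 ± 0.34 with adjusted p = 0.0376) and the vesicular neutral amino acid transporter Slc6a17 (-1.26 ± 0.31 with adjusted p = 0.0129) also fell. Slc1a3 stood at 0.98 to 2.60 CPM at 24 h, against 1.90 to 12.3 CPM untreated, and Slc6a17 at 4.61 to 13.1 CPM, against 16.7 to 25.5 CPM. The Slc6a17 value was -1.04 without WT replicate 1 (adjusted p = 0.0967). The call of Slc1a3 was lost without either KO replicate or WT replicate 2, 3 or 4 (-1.87 to -1.55, adjusted p 0.0591 to 0.173). That of Slc1a6 was lost without either KO replicate, either MUT replicate or WT replicate 1, 2 or 4, or with only the libraries compared in the fit (-1.25 to -1.01, adjusted p 0.063 to 0.128).

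Slc6a17, Slc1a3 and Slc1a6 had a negative change in both sets at 24 h. That of Slc6a17 was -1.86 ± 0.37 (adjusted p = 0.00227) in WT replicates 1 and 2 and -0.80 ± 0.36 (adjusted p = 0.23) in WT replicates 3 and 4. For Slc1a3 it was -1.41 ± 0.64 (adjusted p = 0.213) in WT replicates 1 and 2 and -2.05 ± 0.58 (adjusted p = 0.0438) in WT replicates 3 and 4. For Slc1a6 it was -1.35 ± 0.34 (adjusted p = 0.0145) in WT replicates 1 and 2 and -0.86 ± 0.42 (adjusted p = 0.291) in WT replicates 3 and 4. Of the 15 genes of the amino acid stress response, all tested, 2 were lower in WT at 6 h, Ddit3 (log2 change -0.49 ± 0.14) and Trib3 (-0.64 ± 0.17), against 2.06% of all genes. At 24 h these 2 (-0.93 ± 0.14 and -1.40 ± 0.17) and Chac1 (-0.80 ± 0.16) were lower, against 3.19% of all genes, and none of the 15 was higher at either time. The 15 genes were also listed with earlier results of these data known. Ddit3 encodes CHOP and Trib3 a pseudokinase, both transcribed when ATF4 is active, and Chac1 degrades glutathione.

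Among the 31 mitochondrial carriers 2 rose. Slc25a25, a calcium-regulated carrier of ATP-Mg and phosphate, had 27.8, 13.8, 21.7 and 21.2 CPM untreated, 83.005, 46.8, 60.96 and 48.2 CPM at 6 h and 53.1, 48.9, 40.99 and 38.9 CPM at 24 h, with no overlap between treated and untreated libraries. It rose by 1.48 ± 0.22 with adjusted p = 0.00016 at 6 h and 1.12 ± 0.22 with adjusted p = 0.0021 at 24 h, where it was 1.31 ± 0.28 (adjusted p = 0.00436) in WT replicates 1 and 2 and 0.90 ± 0.30 (adjusted p = 0.095) in WT replicates 3 and 4. Slc25a10, the dicarboxylate carrier, had 13.3, 22.8, 36.1 and 39.9 CPM untreated, 32.02, 20.5, 35.9 and 27.5 CPM at 6 h and 41.98, 40.6, 78.2 and 71.7 CPM at 24 h, and rose at 24 h (1.07 ± 0.27 with adjusted p = 0.0162; lost without WT replicate 3, or with only the libraries compared in the fit (1.06 to 1.07, adjusted p 0.0529 to 0.12)). It was the 1 member higher at 24 than at 6 h (1.02 ± 0.28 with adjusted p = 0.0423), against a background of 1.64% of genes higher and 2.23% lower between these times. The call was lost without either KO replicate, either MUT replicate, WT replicate 2, 3 or 4 or the KO 6 h library of replicate 1, or with only the libraries compared in the fit (0.89 to 1.03, adjusted p 0.0531 to 0.206). Lower at 24 than at 6 h were 5 members. Besides Slc7a2 and Slc7a1 these were Slc41a2, a magnesium transporter (-0.94 ± 0.24 with adjusted p = 0.0289), Slc35a2, which brings UDP-galactose into the Golgi apparatus (-0.53 ± 0.14 with adjusted p = 0.0369), and Slc12a4, a potassium-chloride cotransporter (-0.60 ± 0.16 with adjusted p = 0.0405). The call of Slc41a2 was lost without either KO replicate, either MUT replicate or WT replicate 3 or 4, or with only the libraries compared in the fit (-0.95 to -0.64, adjusted p 0.051 to 0.25). That of Slc35a2 was lost without either KO replicate, either MUT replicate or WT replicate 2, 3 or 4, or with only the libraries compared in the fit (-0.53 to -0.50, adjusted p 0.0623 to 0.2). That of Slc12a4 was lost without either KO replicate, either MUT replicate, WT replicate 2, 3 or 4, the KO 6 h library of replicate 1 or the WT 6 h library of replicate 1, or with only the libraries compared in the fit (-0.65 to -0.48, adjusted p 0.0554 to 0.155). The replicate block made the total between these times 12 in place of 6.

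In the remaining classes single members passed. At 24 h Slc43a3, a purine nucleobase transporter, rose by 1.14 ± 0.26 with adjusted p = 0.00837, with 29.8 to 50.2 CPM against 10.3 to 27.6 CPM untreated. With only the libraries compared in the fit it was not called (1.14, adjusted p = 0.0636). The bicarbonate cotransporter Slc4a4 rose by 1.13 ± 0.34 with adjusted p = 0.0497, with 8.66 to 23.7 CPM against 6.85 to 7.72 CPM untreated. Its call was lost without either KO replicate, either MUT replicate, WT replicate 1 or 2, the KO 6 h library of replicate 1 or the WT 6 h library of replicate 1, or with only the libraries compared in the fit (0.91 to 1.13, adjusted p 0.0506 to 0.213). The change was 1.63 ± 0.33 (adjusted p = 0.00265) in WT replicates 1 and 2 and 0.32 ± 0.39 (adjusted p = 0.73) in WT replicates 3 and 4. The hexose transporter Slc2a6 (GLUT6) rose by 1.84 ± 0.56 with adjusted p = 0.0489. Its call was lost without either KO replicate, either MUT replicate, WT replicate 1, 2 or 3 or the KO 6 h library of replicate 1, or with only the libraries compared in the fit, or by DESeq2 (1.73 to 1.86, adjusted p 0.0511 to 0.14). Its level followed the library sets, with 70.8 and 54.4 CPM in WT replicates 1 and 2 and 15.9 CPM in each of replicates 3 and 4 at 24 h, against 17.5 and 14.5 CPM and 4.67 and 5.79 CPM untreated. Within a set the change at 24 h was 1.97 ± 0.24 (adjusted p = 9.76e-06) in WT replicates 1 and 2 and 1.62 ± 0.36 (adjusted p = 0.00929) in WT replicates 3 and 4. At 6 h Slc2a6 did not pass over all WT libraries (1.85 ± 0.58 with adjusted p = 0.0609), and within a set its change was 2.13 ± 0.25 (adjusted p = 1.09e-05) in WT replicates 1 and 2 and 1.23 ± 0.40 (adjusted p = 0.0508) in WT replicates 3 and 4.

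Slc27a3, of the fatty acid transport family, also differed in level between the sets and fell in WT (log2 change -1.23 ± 0.34 with adjusted p = 0.0326 at 6 h and -1.10 ± 0.32 with adjusted p = 0.0421 at 24 h). The call at 6 h was lost without either KO replicate, either MUT replicate or WT replicate 1 or 4, or with only the libraries compared in the fit (-1.27 to -1.22, adjusted p 0.0649 to 0.22), and that at 24 h was lost without either KO replicate, either MUT replicate, WT replicate 1, 2 or 4 or the KO 6 h library of replicate 1, or with only the libraries compared in the fit (-1.19 to -0.95, adjusted p 0.0544 to 0.168). It had 99.3, 142, 39.5 and 46.9 CPM untreated, 46.2, 52.1, 18.3 and 25.8 CPM at 6 h and 34.8, 57.8, 30.6 and 30.6 CPM at 24 h. Within WT replicates 1 and 2 the changes were -1.28 ± 0.22 and -1.38 ± 0.21, and within replicates 3 and 4 they were -0.95 ± 0.26 and -0.49 ± 0.24, the last with an adjusted p of 0.294. The UDP-galactose carrier Slc35a2 (-0.49 ± 0.14 with adjusted p = 0.0311), the magnesium transporter Slc41a3 (-0.77 ± 0.21 with adjusted p = 0.0264) and the choline transporter Slc44a2 (-0.55 ± 0.16 with adjusted p = 0.0451) fell at 24 h. The call of Slc35a2 was lost without either KO replicate, either MUT replicate or any WT replicate, or with only the libraries compared in the fit (-0.53 to -0.43, adjusted p 0.0546 to 0.146). That of Slc41a3 was lost without either KO replicate, either MUT replicate or WT replicate 1, 2 or 3, or with only the libraries compared in the fit (-0.84 to -0.58, adjusted p 0.051 to 0.131). That of Slc44a2 was lost without either KO replicate, either MUT replicate, WT replicate 2, 3 or 4 or the KO 6 h library of replicate 1, or with only the libraries compared in the fit, or with no filter on low counts (-0.63 to -0.43, adjusted p 0.0514 to 0.281). Slc41a3 changed at 24 h by -0.92 ± 0.22 (adjusted p = 0.01) in WT replicates 1 and 2 and -0.58 ± 0.24 (adjusted p = 0.196) in WT replicates 3 and 4. Slc35a2 changed by -0.53 ± 0.17 (adjusted p = 0.0536) in WT replicates 1 and 2 and -0.46 ± 0.17 (adjusted p = 0.134) in WT replicates 3 and 4, and Slc44a2 by -0.51 ± 0.21 (adjusted p = 0.159) in WT replicates 1 and 2 and -0.60 ± 0.21 (adjusted p = 0.125) in WT replicates 3 and 4.

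Slc9a3r2, a scaffold protein that binds a sodium-proton exchanger and is no transporter itself, fell (log2 change -0.85 ± 0.21 with adjusted p = 0.0144 at 6 h and -0.66 ± 0.19 with adjusted p = 0.0393 at 24 h). Its call at 6 h was lost without WT replicate 1 or 2, or with only the libraries compared in the fit (-0.84 to -0.67, adjusted p 0.0869 to 0.103), and that at 24 h was lost without either MUT replicate, any WT replicate or the KO 6 h library of replicate 1, or with only the libraries compared in the fit (-0.74 to -0.56, adjusted p 0.0509 to 0.218). By set its change at 6 h was -1.26 ± 0.27 (adjusted p = 0.00879) in WT replicates 1 and 2 and -0.42 ± 0.27 (adjusted p = 0.366) in WT replicates 3 and 4, and at 24 h it was -0.79 ± 0.23 (adjusted p = 0.0375) in WT replicates 1 and 2 and -0.50 ± 0.26 (adjusted p = 0.312) in WT replicates 3 and 4. No member sorted as a zinc transporter (16 members), a vesicular or lysosomal carrier (5) or an organic ion carrier (5) passed in any contrast. Slc15a3 and Slc6a17, which passed, were sorted under peptides and amino acids. The most abundant members of the zinc, vesicular or lysosomal and organic ion classes were Slc39a7, Slc33a1, which imports acetyl-CoA into the endoplasmic reticulum (23.6 CPM), and Slc22a17, a receptor for lipocalin (21.2 CPM).

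In KO cells no member passed the test at either time. At 6 h 0 of 171 passed by edgeR, against a background of 0.0794% of all genes, while 6 members had an unadjusted p under 0.05 and DESeq2 called 1, Slc11a2. At 24 h 0 passed by edgeR and 0 by DESeq2, against a background of 0%, and 7 had an unadjusted p under 0.05. KO groups held 2 libraries and WT groups 4, and a difference in these counts does not show that the genotypes differ. That was tested as the difference between the responses, in which each genotype is set against its own untreated libraries.

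In the fit of all 24 libraries by genotype and time, Slc20a1 was the 1 member whose response differed between KO and WT. In KO it had 114 and 171 CPM untreated, 188 and 129.7 CPM at 6 h and 134 and 125 CPM at 24 h. Treated and untreated KO libraries overlapped, and all treated KO libraries lay below all treated WT libraries. The log2 change in KO was 0.15 ± 0.34 at 6 h and -0.13 ± 0.34 at 24 h. The KO response was lower than the WT response by a log2 difference of -2.14 ± 0.42 with adjusted p = 0.0473 at 6 h (95% interval -3.01 to -1.26) and -2.08 ± 0.42 with adjusted p = 0.0331 at 24 h (-2.95 to -1.21), with n = 2 and 4. Over all genes 0.0706% were lower in this test at 6 h and 0.159% at 24 h. Against WT replicates 1 and 2 alone, the set with which KO lay, the differences were -1.99 (adjusted p = 0.0238) and -2.23 (adjusted p = 0.00187). The fit with WT library sets as groups, which gave these values, called 2 members at 24 h. For Slc20a1 the adjusted p at 6 h stayed under the threshold in 7 of 17 alternatives, and at 24 h in 11 of 17. With the replicate block it was 0.0018 at 6 h and 0.000495 at 24 h, though whether KO numbers pair samples is not known. By DESeq2 it was 0.000678 and 0.000784. The difference was -2.69 without KO replicate 1 and -1.59 without KO replicate 2 at 6 h (adjusted p = 0.495 and 0.727), and -2.39 and -1.72 at 24 h (adjusted p = 0.194 and 0.923). With only the libraries compared in the fit it was not called at either time (-2.15 and -2.07, adjusted p = 0.21 each). At 6 h it was also not called without WT replicate 2, 3 or 4 (-2.08, -2.03 and -2.14, adjusted p = 0.12, 0.157 and 0.104), without MUT replicate 1 or 2 (-2.15 each, adjusted p = 0.147 each), without the KO 6 h library of replicate 1 (-2.41, adjusted p = 0.139) or the WT 6 h library of replicate 1 (-2.06, adjusted p = 0.0961). At 24 h it was not called without WT replicate 2 (-1.94, adjusted p = 0.127) or without MUT replicate 1 or 2 (-2.08 each, adjusted p = 0.0903 and 0.0909). The sign was negative throughout.

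**Figure D3:**
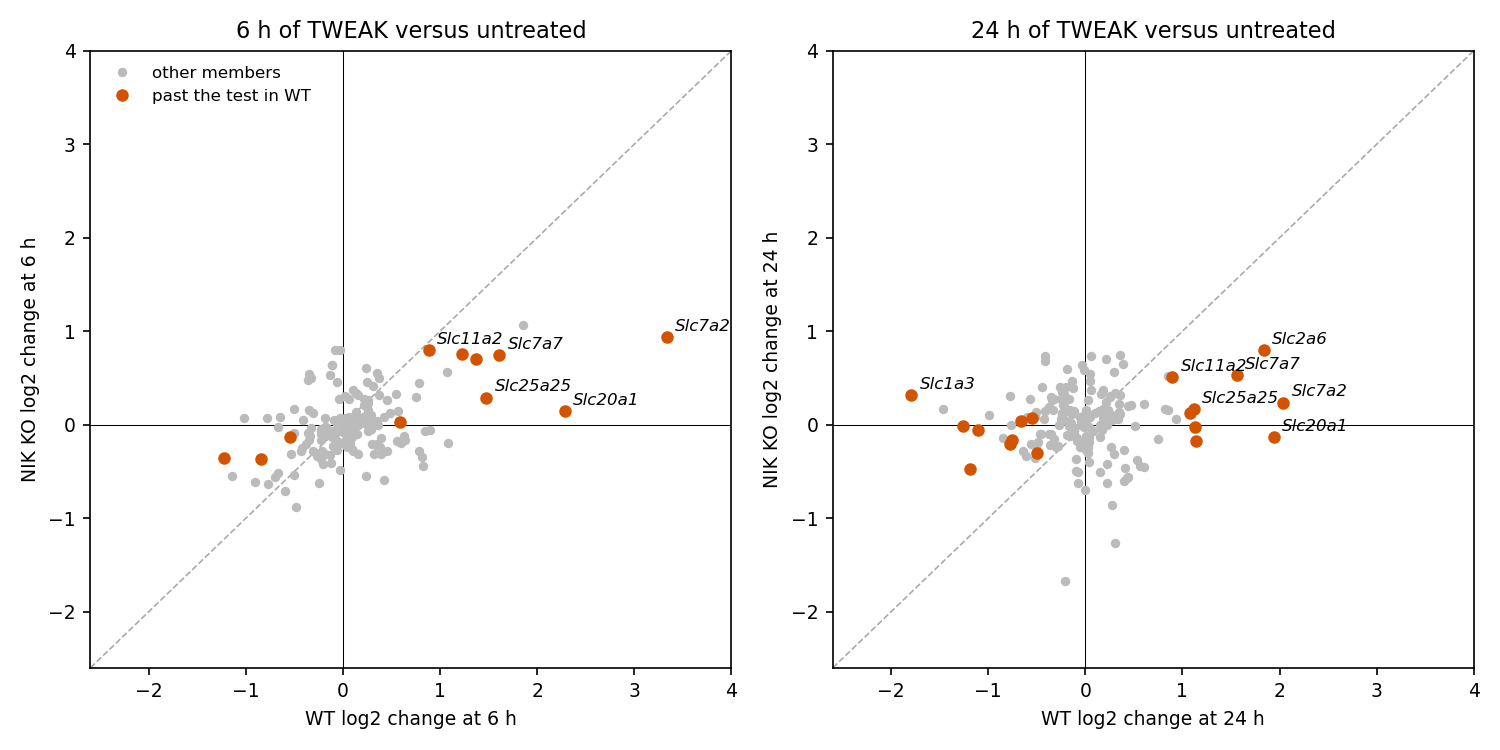
Log2 change of 170 members in KO (vertical axis) against WT (horizontal axis) after 6 h (left) and 24 h (right) of TWEAK, with the line of equal change dashed and members past the test in WT in orange; Slc15a3 is left out because it had 0 UMIs in untreated KO libraries. Slc20a1 lies near 0 on the KO axis (0.15 and -0.13), whereas Slc11a2 at 6 h lies close to the line (0.80 in KO, 0.89 in WT).

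Slc11a2 was higher after TWEAK in every KO library. KO libraries had 55.2 and 60.2 CPM untreated, 105 and 95.9 CPM at 6 h and 81.98 and 81.97 CPM at 24 h, with every treated library above both untreated ones. The log2 change was 0.80 ± 0.17 with adjusted p = 0.135 at 6 h and 0.51 ± 0.17 with adjusted p = 1 at 24 h, neither past the test by edgeR. The KO response minus the WT response was -0.09 at 6 h (95% interval -0.52 to 0.34, adjusted p = 1) and -0.39 at 24 h (-0.81 to 0.04, adjusted p = 0.695).

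Slc15a3 had 0 and 0 UMIs in untreated KO libraries, 4 and 9 at 6 h and 1 and 2 at 24 h. Relative to depth, and against a floor of 3 UMIs over the 2 untreated libraries, it was at least 5.38-fold higher at 6 h, which did not pass the test (adjusted p = 0.297). In KO it stood at 4.12 and 4.34 CPM at 6 h, below all 4 WT libraries, and at 0.603 and 0.9996 CPM at 24 h, against 8.86, 7.37, 13.3 and 9.304 CPM in WT at that time. With 0 UMIs before treatment the difference between the KO and WT responses has no usable size, and its test did not pass at either time (adjusted p = 1 and 0.968).

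Slc7a2 had 4.31 and 2.801 CPM in KO untreated, 6.18 and 7.71 CPM at 6 h and 3.62 and 4.998 CPM at 24 h. At 6 h both KO libraries lay below all WT libraries. The KO response minus the WT response was -2.39 ± 0.67 with adjusted p = 0.54 at 6 h (95% interval -3.78 to -1.01) and -1.80 ± 0.68 with adjusted p = 0.499 at 24 h (-3.21 to -0.39), and neither passed after adjustment over all genes. For Slc25a25 the KO libraries had 20.7 and 14.7 CPM untreated, 16.5 and 26.03 CPM at 6 h and 20.5 and 19.99 CPM at 24 h, and the difference was -1.18 ± 0.41 with adjusted p = 0.834 at 6 h, also short of the threshold. Slc7a1 changed by 0.03 ± 0.22 in KO at 6 h, and its difference from WT was -0.56 ± 0.26 with adjusted p = 1. In WT replicates 1 and 2, the set with which KO lay, Slc7a1 changed by 0.36 ± 0.18, and in replicates 3 and 4, the set with which MUT lay, by 0.77 ± 0.17, so genotype and library set moved together here and the part of the set was not tested. For Slc7a5 the KO response minus the WT response was -0.0011 at 6 h (95% interval -0.89 to 0.88) and 0.49 at 24 h (-0.39 to 1.36), and neither passed.

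The members called in WT were then read in KO. Of the 9 higher in WT at 6 h, all 9 had a log2 change above 0 in KO and 8 a smaller one than in WT, with a median of 0.74, against 1.48 in WT. The exception was Slc15a3, which had 0 UMIs in untreated KO. Its KO change has no usable size but enters the counts and medians given here. Of the 10 higher at 24 h, 7 were above 0 in KO and 10 were smaller than in WT, with a median of 0.20, against 1.35 in WT. Of the 9 lower at 24 h, 6 were below 0 in KO, with a median of -0.05, against -0.77 in WT. These members were chosen on their WT change, so the counts are a description. The largest positive difference at 24 h was that of Slc1a3, which had 6.03 and 5.998 CPM in KO, against 0.98, 2.15, 2.598 and 2.19 CPM in WT (2.11 ± 0.84 with adjusted p = 0.536 between the responses), and it did not pass.

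**Figure D4:**
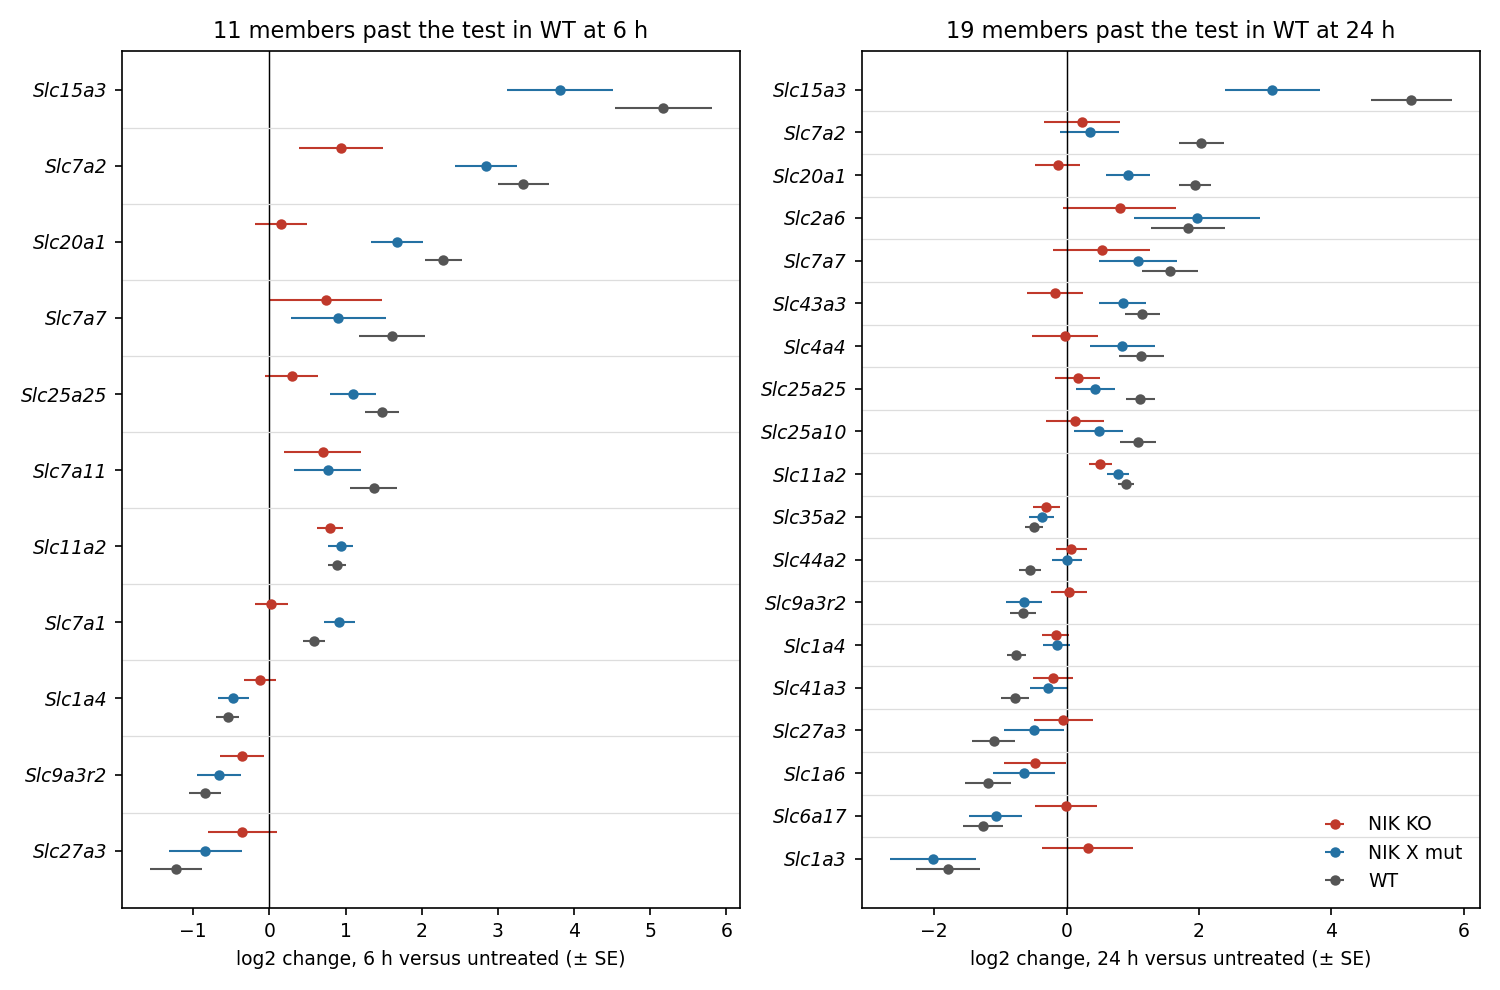
Log2 change with its SE in KO, MUT and WT for 11 of the 12 members past the test in WT at 6 h (left) and the 19 at 24 h (right), ordered by the WT change. The fitted size of Slc15a3 depends on the prior count of the fit and its KO point is left out; KO points of Slc20a1, Slc25a25 and Slc7a1 at 6 h lie between 0.03 and 0.29, while MUT points of the same members lie between 0.92 and 1.68. KO and MUT lay with different library sets, and WT points pool both sets.

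In MUT cells, which keep the Map3k14 transcript, 5 members rose at 6 h and none fell, against a background of 1.5% of genes higher. They were Slc7a2 (2.84 ± 0.41 with adjusted p = 0.000334), Slc15a3 (3.81 ± 0.70 with adjusted p = 0.0061), Slc20a1 (1.68 ± 0.34 with adjusted p = 0.0102), Slc11a2 (0.94 ± 0.16 with adjusted p = 0.00338) and Slc7a1 (0.92 ± 0.20 with adjusted p = 0.0189). Slc20a1 had 137 and 104 CPM untreated, 419 and 353 CPM at 6 h and 235 and 226 CPM at 24 h in MUT, with treated libraries above untreated ones and below all WT libraries of the same time. Slc7a2 had 31.6 and 36.8 CPM at 6 h, 1 library within and 1 above the range of the WT libraries, and 6.704 and 5.43 CPM at 24 h, below all of them. Slc15a3 had 0.93 and 0 CPM untreated, 4.92 and 10.8 CPM at 6 h and 5.29 and 4.75 CPM at 24 h. Slc7a1 had 122 and 134 CPM at 6 h, against 66.4 and 69.7 CPM untreated. Without MUT replicate 1, of these 5 calls only that of Slc15a3 was made, and without MUT replicate 2 none was. The log2 changes without replicates 1 and 2 were 3.11 and 2.62 for Slc7a2, 1.78 and 1.63 for Slc20a1, 0.98 and 0.93 for Slc11a2, and 0.96 and 0.89 for Slc7a1, and Slc15a3 was at 2.34 without replicate 2.

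At 24 h 2 members were higher in MUT, Slc11a2 (0.78 ± 0.16 with adjusted p = 0.0237) and Slc15a3 (3.11 ± 0.71 with adjusted p = 0.0452), against a background of 0.494%. The call of Slc11a2 was lost without KO replicate 2 or either MUT replicate (0.63 to 0.91, adjusted p 0.0514 to 1), and that of Slc15a3 was lost without either KO replicate, either MUT replicate, WT replicate 2, 3 or 4 or the KO 6 h library of replicate 1 (2.43 to 6.41, adjusted p 0.0536 to 1). With the replicate block 13 members passed in MUT at 6 h and 8 at 24 h, though whether MUT numbers pair samples is not known. Slc20a1 changed by 0.93 ± 0.33 with adjusted p = 0.288 and did not pass. Slc7a5 had 83.4 and 83.1 CPM untreated, 40.04 and 54.8 CPM at 6 h and 35.3 and 30.2 CPM at 24 h, in descending order without overlap. Its change at 24 h was -1.35 ± 0.33 with adjusted p = 0.0772 by edgeR, short of the threshold. DESeq2 (adjusted p = 0.0268), the replicate block (adjusted p = 0.00853) and the authors' deposited table (-1.34, adjusted p = 0.0325) called it lower. So did the compared libraries alone (adjusted p = 0.000133), WT library sets as groups (adjusted p = 0.000958) and leaving out WT replicate 1 (adjusted p = 0.0194). RLE size factors (adjusted p = 0.0851), no filter on low counts (adjusted p = 0.0779) and leaving out any other replicate did not call it.

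No member passed the test of the MUT response against the WT response. The count was 0 by edgeR at both times, where 3 members had an unadjusted p under 0.05 at 6 h and 6 at 24 h, and 0 by DESeq2, against a background of 0% at 6 h and 0% at 24 h. The MUT response of Slc20a1 minus that of WT was -0.61 at 6 h (95% interval -1.45 to 0.24) and -1.01 at 24 h (-1.85 to -0.16, adjusted p = 0.964). That of Slc7a2 was -0.49 at 6 h (-1.59 to 0.60) and -1.68 at 24 h (-2.86 to -0.51, adjusted p = 0.902). That of Slc11a2 was 0.05 at 6 h (-0.37 to 0.47) and -0.12 at 24 h (-0.53 to 0.29). That of Slc7a5 was -0.78 at 6 h (-1.63 to 0.08) and -1.02 at 24 h (-1.86 to -0.17, adjusted p = 0.964). In WT replicates 3 and 4, the set with which MUT lay, Slc7a5 changed by 0.09 ± 0.22 at 24 h. The comparisons of KO and of MUT with WT share the WT libraries. Of the 9 members higher in WT at 6 h, all 9 were above 0 in MUT with a median of 1.09, against 1.48 in WT, and of the 10 at 24 h all 10 were, with a median of 0.85, against 1.35.

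Before TWEAK no member passed the test between genotypes. Between KO and WT 0 members passed by edgeR and by DESeq2 and 8 had an unadjusted p under 0.05, against a background of 0.00882% of genes. Between MUT and WT 0 passed by both and 10 had an unadjusted p under 0.05, against 0%. Slc20a1 had 114 and 171 CPM in KO, 137 and 104 CPM in MUT and 182, 98.1, 92.6 and 107 CPM in WT, a log2 difference of 0.24 ± 0.29 between KO and WT (95% interval -0.36 to 0.85). Slc11a2 differed by -0.03 ± 0.15 (-0.34 to 0.28). Slc27a3 had 118 and 118 CPM in KO, 52.8 and 56.9 CPM in MUT and 99.3, 142, 39.5 and 46.9 CPM in WT, levels that followed the library sets.

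Carriers and pumps that bear other symbols gave a further view of transport. Of 25 tested, 6 were higher in WT at 6 h and 3 at 24 h, against 4.35% and 3.68% of all genes, and none was lower. The list was chosen with earlier results of these data known. The organic anion transporter Slco3a1 rose by 1.22 ± 0.15 at 6 h and 1.34 ± 0.15 at 24 h, and Slco4a1 by 2.49 ± 0.49 and 3.06 ± 0.45. Atp2b4, a calcium pump of the plasma membrane, rose by 1.21 ± 0.23 at 6 h, and the efflux pump Abcc1 by 0.62 ± 0.17. Abcb1b, a multidrug efflux pump, rose by 1.07 ± 0.30 at 6 h and 1.91 ± 0.28 at 24 h. Slco3a1 was also the 1 gene of this list past the test in MUT, at 6 h (0.96 ± 0.21) and 24 h (0.98 ± 0.21), against 1.5% and 0.494% of all genes higher. In KO 0 of the 25 passed by edgeR at either time, against 0.0794% of all genes at 6 h and 0% at 24 h. No gene of these lists differed between KO and WT in its response by that test, against 0.097% of all genes at 6 h and 0.265% at 24 h.

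The authors' deposited table called 10 members higher and 3 lower in WT at 6 h, 9 and 9 at 24 h, and 0 in KO at either time. In MUT it called 7 higher and 1 lower at 6 h and 2 higher and 1 lower at 24 h. Its log2 fold change of Slc20a1 in WT was 2.29 at 6 h and 1.93 at 24 h.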

How the data were processed

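Bulk MARS-seq libraries of 50 ng total RNA each measured 3′ ends of transcripts in 24 samples, per the labels' protocols. More than 1 RNA kit was used, and which sample had which is not given in the sources used here. The deposited count values are UMIs per gene, with no normalization. The tools listed, per the submitters' processing notes, were STAR 2.7.10a, cutadapt, HTSeq and DESeq2, on GRCm38. The authors' deposited table also gives log2 fold changes and adjusted p-values of their own comparisons, named where used. Whether counting used strand is not given in the sources used here, so a member and an antisense partner may share reads.

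Counts were filtered by edgeR's filterByExpr over 9 groups, scaled by TMM and fitted with edgeR 4.0.16 (R 4.3.3, limma 3.58.1) in 1 quasi-likelihood model of all 24 libraries, without a replicate block. CPM are TMM-normalised, SE is the log2 change over the square root of F, and p-values are adjusted over all 11337 genes. The response of KO or MUT minus that of WT is an interaction contrast. The alternatives were RLE size factors, no filter, the compared libraries alone, DESeq2 1.42.0, a replicate block and WT library sets as groups. Each replicate number of a genotype was also left out. It is called a culture here, though the labels do not say that its libraries share one. A crossed block and leaving out either of 2 single libraries were chosen after seeing the data. Members, substrate classes, gene lists and tests were chosen with earlier results of these data known.

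Same-numbered WT libraries of different times had correlations of their deviations from group means of 0.328 to 0.688 over 7289 genes. Between WT replicates 1 and 2 these correlations were 0.016 to 0.240, so the numbers pair those samples. Between WT replicates 3 and 4 they were 0.242 to 0.505, so there number and library set cannot be told apart. With 2 libraries in each MUT and KO group, correlations of the same number and across numbers are equal and opposite. Those of the same number were 0.0011 to 0.071 in MUT and -0.28 to 0.0996 in KO, which cannot show whether the numbers pair samples. Named genes are Slc15a3, Slc11a2, Slc20a1 and Slc7a5, every member past the test (at most 15 a direction), the 5 with the highest level, the highest of each class without a call, and up to 5 genes past the test per related list. Of the members past the test in WT at 6 h, 1 is counted but not reported here.

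Library depth was 889863 to 4342981 UMIs, with 12333 to 13338 genes detected. The Poisson intervals and the floor of 3 UMIs over a group cover counting error only.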

Additional observations from a re-analysis of the deposited data

Results flagged for a closer look

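In 5 groups of 4 WT libraries 1 library lay far from the other 3, by Dixon's test, which chance meets in about 1 of 20 groups. There were 96 such groups of named members. Slc20a1 had 181.566 CPM in untreated WT replicate 1, against 92.6 to 107 CPM in the others. Slc27a3 had 57.7662 CPM in WT replicate 2 at 24 h, against 30.6 to 34.8 CPM. Slc1a6 had 22.5298 CPM in WT replicate 1 at 6 h, against 6.10 to 7.64 CPM. Slc4a4 had 6.85155 CPM in untreated WT replicate 1, against 7.64 to 7.72 CPM. Slc22a17 had 27.0395 CPM in WT replicate 2 at 24 h, against 13.1 to 14.8 CPM.

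The response of Slc20a1 differed between KO and WT in the test of the difference itself, by -2.13551 on the log2 scale at 6 h and -2.07572 at 24 h. The untreated WT library that lay apart for Slc20a1 enters both values as part of WT. Without WT replicate 1 the differences were -2.35 (adjusted p = 0.00276) at 6 h and -2.09 (adjusted p = 0.00231) at 24 h.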

How the results depend on the processing

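Member counts past the test moved with the setting, while no called change reversed its sign. Of 46 calls, 11 were made under every alternative. The replicate block gave 21 members in WT at 6 h, 30 at 24 h, 12 between 24 and 6 h, 13 in MUT at 6 h and 8 at 24 h; it changed no call in KO or between KO and WT. With the untreated KO numbers crossed, chosen after seeing the data, these 5 counts were 24, 34, 16, 14 and 10, and KO at 6 h had 1. WT library sets as groups gave 19, 32, 15, 16 and 6, with 1 in KO at 6 h and 2 for KO minus WT at 24 h. The compared libraries alone gave 6, 7, 0, 25 and 20, and 0 for KO minus WT at 6 h and 0 at 24 h. DESeq2 gave 8 in MUT at 6 h and 1 in KO at 6 h. Leaving out a culture or single library gave 7 to 18 in WT at 6 h, 9 to 19 at 24 h, 0 to 11 between them, 0 to 10 and 0 to 3 in MUT at 6 and 24 h, and 0 to 1 for KO minus WT at each time. No paired analysis was possible for untreated KO or MUT against WT because a block holds 1 genotype.

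With 2 libraries in each KO and MUT group, leaving 1 out leaves a lone library assumed to vary like the other groups. Slc15a3 rests on 0 to 46 UMIs a library, and its fitted size depends on the prior count. KO shares its library set with WT replicates 1 and 2, and MUT with replicates 3 and 4, so set and genotype cannot be told apart without dividing WT.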
